A study of Homo sapiens with 44 samples.

Results

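Kelly tumours grown under the skin of mice were compared with Kelly cells grown in a dish, using only the control libraries of a study of STM2457, an inhibitor of the RNA methyltransferase METTL3. Kelly is a human neuroblastoma cell line, and the labels give it as MYCN-amplified, meaning that it carries extra copies of the oncogene MYCN. The comparison was set by labels alone: every input RNA library of DMSO-treated Kelly xenografts (2 tumours, 14 days) against every input RNA library of DMSO-treated Kelly cultures at 6 days (3 cultures), which are 5 of the 44 samples of the series. Input RNA is poly(A) RNA sequenced without the antibody step that the same study used to enrich methylated RNA.

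The cultures were kept in RPMI medium with serum and received DMSO for 6 days. The tumours grew from cells injected subcutaneously, together with a basement membrane extract, into male and female nude mice, and the mice were injected in the abdomen once a day for 14 days. The control injection is labelled DMSO and described in the protocol as vehicle. Both groups carry the label WT for genotype. 3 DMSO cultures taken at 1 day served as a further culture reference, and 3 cultures given 8 µM STM2457 for 6 days and 2 tumours given 50 mg/kg STM2457 for 14 days gave the same contrast in other libraries. Nude mice lack mature T cells but keep the other cells of a host, so a tumour holds mouse vessels, fibroblasts and macrophages beside the human cells. The counts cover human genes only, and no source used here says whether mouse reads were removed.

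In a dish, oxygen, glucose and amino acids reach the cells through the medium, and how well these cultures were supplied was not measured. A solid tumour is fed through vessels, and cells far from a vessel receive less oxygen. Under low oxygen the prolyl hydroxylases that mark the factors HIF1A and EPAS1 for destruction through VHL slow down, and these factors then switch on genes for glucose uptake, glycolysis, lactate export, blood vessel growth and a lower use of oxygen by mitochondria. Shortage of amino acids or stress in the endoplasmic reticulum acts through another factor, ATF4, which switches on amino acid synthesis and transport.

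Several promoter windows are shown first because the oxygen and amino acid responses described below are read through such short motifs. The sequences are those of RefSeq on GRCh38.p14, and each covers the 250 bases before an annotated gene start, written 5′ to 3′ along the gene. Capitals mark matches to the motif on either strand. The first 3 genes belong to the hypoxia list, were called higher in tumours and hold the core of the hypoxia response element, ACGTG.
ANKRD37, chr4:185396591-185396840, plus strand: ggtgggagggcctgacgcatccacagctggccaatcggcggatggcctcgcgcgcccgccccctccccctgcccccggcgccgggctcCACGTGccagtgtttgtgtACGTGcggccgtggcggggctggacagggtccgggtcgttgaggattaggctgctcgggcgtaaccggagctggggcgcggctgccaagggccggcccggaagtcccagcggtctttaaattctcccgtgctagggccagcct
BHLHE40, chr3:4979187-4979436, plus strand: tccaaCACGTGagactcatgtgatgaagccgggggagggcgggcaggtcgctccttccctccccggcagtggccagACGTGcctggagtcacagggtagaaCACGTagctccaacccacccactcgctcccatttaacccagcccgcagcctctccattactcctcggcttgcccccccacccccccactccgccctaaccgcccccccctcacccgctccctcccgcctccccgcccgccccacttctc
ANGPTL4, chr19:8363905-8364154, plus strand: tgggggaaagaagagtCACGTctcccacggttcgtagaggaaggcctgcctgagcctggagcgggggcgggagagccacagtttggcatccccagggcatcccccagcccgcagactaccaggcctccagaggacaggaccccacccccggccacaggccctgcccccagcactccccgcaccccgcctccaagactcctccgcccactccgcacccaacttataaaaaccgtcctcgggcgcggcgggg
The motif ACGTG was searched on both strands, where its reverse complement overlaps it in the run CACGTG. It lay in 18.5% of all 35116 promoter windows and in 20 of the 36 windows of the 25 listed hypoxia genes that had any. Listed genes called higher had 8 windows, from 5 genes, of which 4 held the motif. Those called lower had 5 windows, from 5 genes, of which 3 held it. NDUFA4L2, described below, had no window. The next 3 genes belong to the amino acid response list, were called lower in tumours and hold TGATGNAA, the shared form of the element bound by ATF4 and C/EBP factors.
ASNS, chr7:97872409-97872658, minus strand: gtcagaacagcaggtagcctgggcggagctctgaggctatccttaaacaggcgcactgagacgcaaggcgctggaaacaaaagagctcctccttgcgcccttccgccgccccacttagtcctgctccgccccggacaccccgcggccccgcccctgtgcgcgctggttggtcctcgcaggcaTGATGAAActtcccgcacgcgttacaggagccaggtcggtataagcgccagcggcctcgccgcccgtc
CHAC1, chr15:40953221-40953470, plus strand: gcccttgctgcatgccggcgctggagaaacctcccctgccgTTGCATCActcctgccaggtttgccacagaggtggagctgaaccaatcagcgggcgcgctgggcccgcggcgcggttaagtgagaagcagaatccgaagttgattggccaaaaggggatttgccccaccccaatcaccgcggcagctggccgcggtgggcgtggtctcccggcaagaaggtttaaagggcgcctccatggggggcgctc
ATF3, chr1:212565157-212565406, plus strand: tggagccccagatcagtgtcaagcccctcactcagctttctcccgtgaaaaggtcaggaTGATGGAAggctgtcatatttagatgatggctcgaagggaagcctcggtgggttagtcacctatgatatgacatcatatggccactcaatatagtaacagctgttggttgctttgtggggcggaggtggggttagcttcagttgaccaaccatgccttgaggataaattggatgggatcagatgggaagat
TGATGNAA, searched on both strands, lay in 3.14% of all windows and in 4 of the 27 windows of 18 listed genes. A match of this kind describes the letters and shows no binding.

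The 6 day cultures held 12086438 to 12780130 assigned fragments per library, the tumours 4300547 and 7271929 and the 1 day cultures 24143331 to 26559877. Levels are given in counts per 1000000 assigned fragments (CPM), and log2 changes are taken after edgeR's TMM scaling between libraries, which adds 0.06 to the log2 ratio of CPM values against the 6 day cultures and 0.41 against the 1 day cultures. The tumours differed more from each other than the cultures did. Over the DMSO libraries edgeR's common biological coefficient of variation was 0.292 for the tumours and 0.0613 for the 6 day cultures. It was 0.619 for the STM2457 tumours, which held 3189750 and 2144870 assigned fragments and also enter the tumour-spread test described below. The labels do not say whether replicates were separate cultures or separate animals, so the p-values measure the spread between these libraries. The 6 day cultures, the 1 day cultures and the tumours were stored in different experiment folders per the file headers, so tumour growth and whatever else differed between these experiments cannot be told apart. In bulk RNA, fewer cells of a type and less RNA per cell cannot be told apart either.

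The labelled cell type was checked against its markers. The 13 genes chosen as neuroblastoma identity markers summed to 32134 to 35071 CPM in tumours and 31510 to 32247 CPM in cultures. The same sum was 16306 to 17968 CPM in the 1 day cultures. Against the 6 day cultures 4 of the 13 were higher and 5 lower at an adjusted p under 0.05 (edgeR), beside 20.4% of all genes each way. MYCN, on chromosome 2 at 15940550 to 15947007 (GRCh38, plus strand), stood at 5263, 5208 and 5362 CPM in the cultures and 6498 and 6008 CPM in the tumours. Both tumours lay above all 3 cultures, a log2 change of 0.30 ± 0.05 (SE), with an adjusted p of 0.00121. Most genes that define host cell types were near 0. Of 12 fibroblast genes 7 had no count in either tumour, among them COL1A2, DCN and LUM, and the list summed to 126 to 157 CPM in tumours and 163 to 171 CPM in cultures. Of 15 macrophage genes 9 were at 0 in both tumours, with PTPRC, AIF1 and ADGRE1 among them, although the list summed to 48.4 to 53.5 CPM in tumours and 30.6 to 34.6 CPM in cultures, mostly from CD74, at 46.3 and 46.6 CPM in tumours. Of 11 endothelial genes 5 were at 0 in both tumours, PECAM1 included. That list summed to 19.1 to 29.0 CPM in tumours and 5.10 to 8.45 CPM in cultures, and VWF, the von Willebrand factor of vessels and platelets, stood at 15.3 and 15.4 CPM in tumours against 2.23, 2.66 and 0.891 CPM in cultures. The 8 pericyte and smooth muscle genes summed to 1430 to 1440 CPM and 1240 to 1260 CPM, nearly all from RGS5, and the part of mouse reads in any single gene was not tested.

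The question was how far growth as a tumour changed the RNA of these cells. Many genes differed. Of 13065 genes tested, 5325 (40.8%) differed at an adjusted p under 0.05 in edgeR's quasi-likelihood test, 2661 higher in tumours (20.4%) and 2664 lower (20.4%), and 6444 had an unadjusted p under 0.05. The median log2 change over all tested genes was -0.03. The 20.4% called in each direction is the background for the list counts against the 6 day cultures below. For list counts against the 1 day cultures the background is 29.1% higher and 32.5% lower. A large change, at least 2-fold, was called for 1112 genes higher (8.51%) and 1085 lower (8.3%). After scaling, 858 of the large rises had both tumours above all 6 DMSO cultures of both times. Of the large falls, 781 had both tumours below all 6. Over all tested genes the shares were 19% above and 20% below. The large changes were chosen with these same tumours and the 6 day cultures, so much of their separation follows from the choice. In CPM, 1108 of the rises and 1085 of the falls were already separated from the 6 day cultures.

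The number of calls depends on whose spread is used. Without culture 1, 2 or 3 the quasi-likelihood test made 3398, 3360 or 3397 calls. An edgeR likelihood ratio test instead took the spread from the 4 tumour libraries, 2 given DMSO and 2 given STM2457. In it edgeR draws each gene's spread toward a trend shared by all genes. Failing this test therefore does not show that a gene's DMSO tumours differed from each other. It called 745 genes higher (5.7%) and 274 lower (2.1%). This second test is called the tumour-spread test below, and its outcome is given for the lists and for some of the named genes. Its shares of 5.7% higher and 2.1% lower are the background for each list count in that test. The tumours mostly stood close to each other among large rises, where 951 of 1112 genes had tumours within 2-fold. Among the 1085 large falls, 790 had tumours within 2-fold and 189 had at least 1 tumour at 0.

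**Figure D1:**
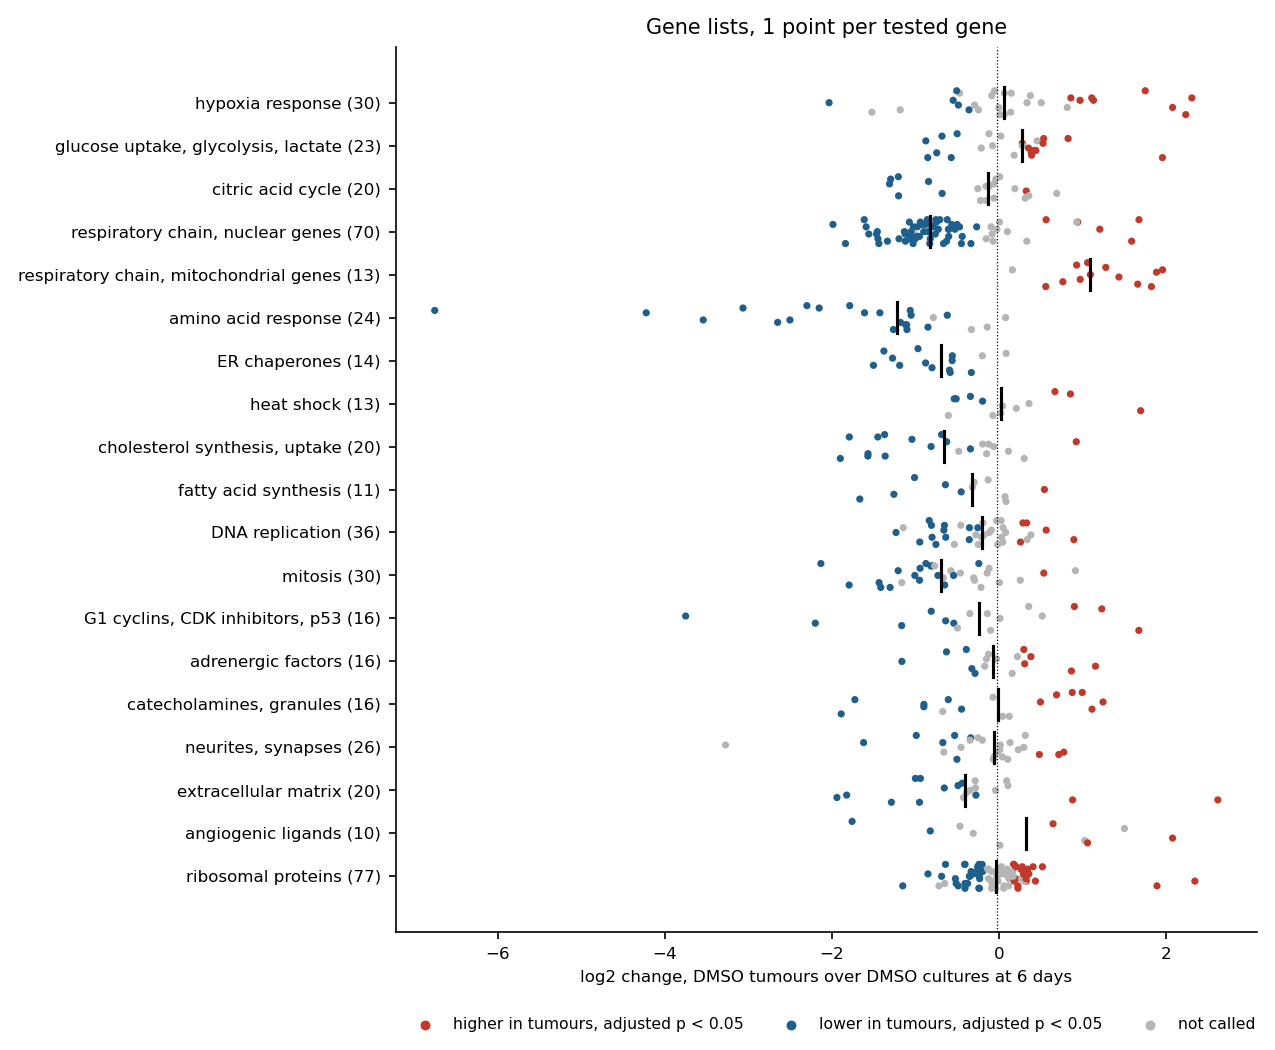
Log2 change of DMSO tumours over 6 day DMSO cultures for each tested gene of 19 lists, with red points called higher, blue points called lower and grey points not called at an adjusted p of 0.05 (edgeR). Black ticks mark list medians and the dotted line the median of all genes, -0.03: the amino acid response lies left of it with a median of -1.22, and the mitochondrial genes of the respiratory chain lie right of it with a median of 1.09.

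The hypoxia list showed no common direction against the 6 day cultures, and its shares called each way were near those of all genes. Of 30 tested genes from the list of HIF target genes, 8 rose, 5 fell and 17 were not called, against 20.4% called in each direction over all genes, and the list median was 0.06. The rises were led by NDUFA4L2, NDRG1 and ANGPTL4, at 4.10 to 4.74 times the culture level. STC2 and DDIT4, which are also induced through ATF4, fell, as did HIF1A and EPAS1.

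NDUFA4L2, a HIF target that lowers the activity of respiratory complex I, lies on chromosome 12 at 57234903 to 57240715 (GRCh38, minus strand). It stood at 27.1, 21.4 and 24.1 CPM in the 6 day cultures, 119 and 110.2 CPM in the tumours and 0.584, 0.331 and 0.565 CPM in the 1 day cultures. The tumours were above every culture, and the cultures differed widely between their own times, so the fold depends on the reference: log2 changes were 2.30 ± 0.13 (SE, adjusted p = 8.04e-06) against 6 days and 8.22 (adjusted p = 9.95e-08) against 1 day. NDRG1, a stress gene induced by low oxygen, stood at 16.4, 15.5 and 18.5 CPM in the cultures and 65.6 and 85.1 CPM in the tumours. The groups did not overlap, and the log2 change was 2.23 ± 0.15 with an adjusted p of 2.34e-05. ANGPTL4, a secreted inhibitor of lipoprotein lipase, was measured at 2.65, 3.52 and 4.94 CPM in cultures and 19.8 and 10.6 CPM in tumours, a log2 change of 2.07 ± 0.39 (adjusted p = 0.00347). Its lower tumour was still above the highest culture. These 3 genes passed the tumour-spread test as well, with adjusted p-values of 1.03e-15, 2.79e-10 and 0.013, and STC2 was the listed fall that passed it.

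Other rises were smaller and did not pass the tumour-spread test. BHLHE40, a transcriptional repressor of the circadian clock family, went from 12.3, 12.9 and 13.3 CPM in cultures to 28.1 and 25.9 CPM in tumours (log2 change 1.13, adjusted p = 0.00137). EGLN3, the prolyl hydroxylase that HIF itself induces, went from 11.3, 14.0 and 12.7 CPM to 20.7 and 23.2 CPM (log2 change 0.86, adjusted p = 0.00886). HILPDA, a lipid droplet protein, stood at 37.6, 39.4 and 38.9 CPM in cultures and 72.3 and 72.6 CPM in tumours, yet the 1 day cultures were at 81.0, 74.0 and 80.8 CPM. The HILPDA tumours thus lay above the 6 day cultures and just under the 1 day cultures in CPM, where the scaled log2 change was 0.27 (adjusted p = 0.0499). ANKRD37 rose by 1.75 and AK4, a mitochondrial adenylate kinase, by 1.11 on the log2 scale. The tumour libraries of AK4 stood at 26.7 and 12.4 CPM, the second close to the highest culture among 8.52, 11.1 and 8.26 CPM.

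Among the listed falls STC2, a secreted glycoprotein of stressed cells, stood at 73.6, 72.1 and 75.4 CPM in the 6 day cultures, 12.3 and 21.2 CPM in the tumours and 10.8, 10.2 and 10.8 CPM in the 1 day cultures. The tumours lay between these culture times, so the log2 change of -2.03 (adjusted p = 1.12e-04) turned to 1.07 (adjusted p = 0.00744) against the 1 day cultures. DDIT4, an inhibitor of mTORC1 signalling, stood at 218, 213 and 207 CPM in cultures and 148 and 143 CPM in tumours and turned in the same way, from -0.49 to 1.59. CA9, the carbonic anhydrase often used to mark hypoxic tumours, was not called: it stood at 4.63, 3.13 and 2.02 CPM in cultures and 0.698 and 1.38 CPM in tumours (log2 change -1.52, adjusted p = 0.0879). VEGFA was not analysed here.

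Of 9 tested genes that sense oxygen or regulate HIF, 3 rose, 2 fell and the median was 0.06. HIF1A stood at 49.7, 51.2 and 45.9 CPM in cultures and 33.3 and 34.4 CPM in tumours, a fall of 0.47 on the log2 scale (adjusted p = 0.016), and EPAS1, the second HIF factor, at 516, 536 and 516 CPM and 356 and 338 CPM (log2 change -0.53, adjusted p = 2.75e-04). Neither passed the tumour-spread test. VHL, the ubiquitin ligase part that binds hydroxylated HIF, rose from 47.0, 51.6 and 45.8 CPM to 91.4 and 76.9 CPM (log2 change 0.86, adjusted p = 7.51e-04) and did pass it, with an adjusted p of 0.0243. HIF is controlled mainly at the protein level, which was not measured.

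**Figure D2:**
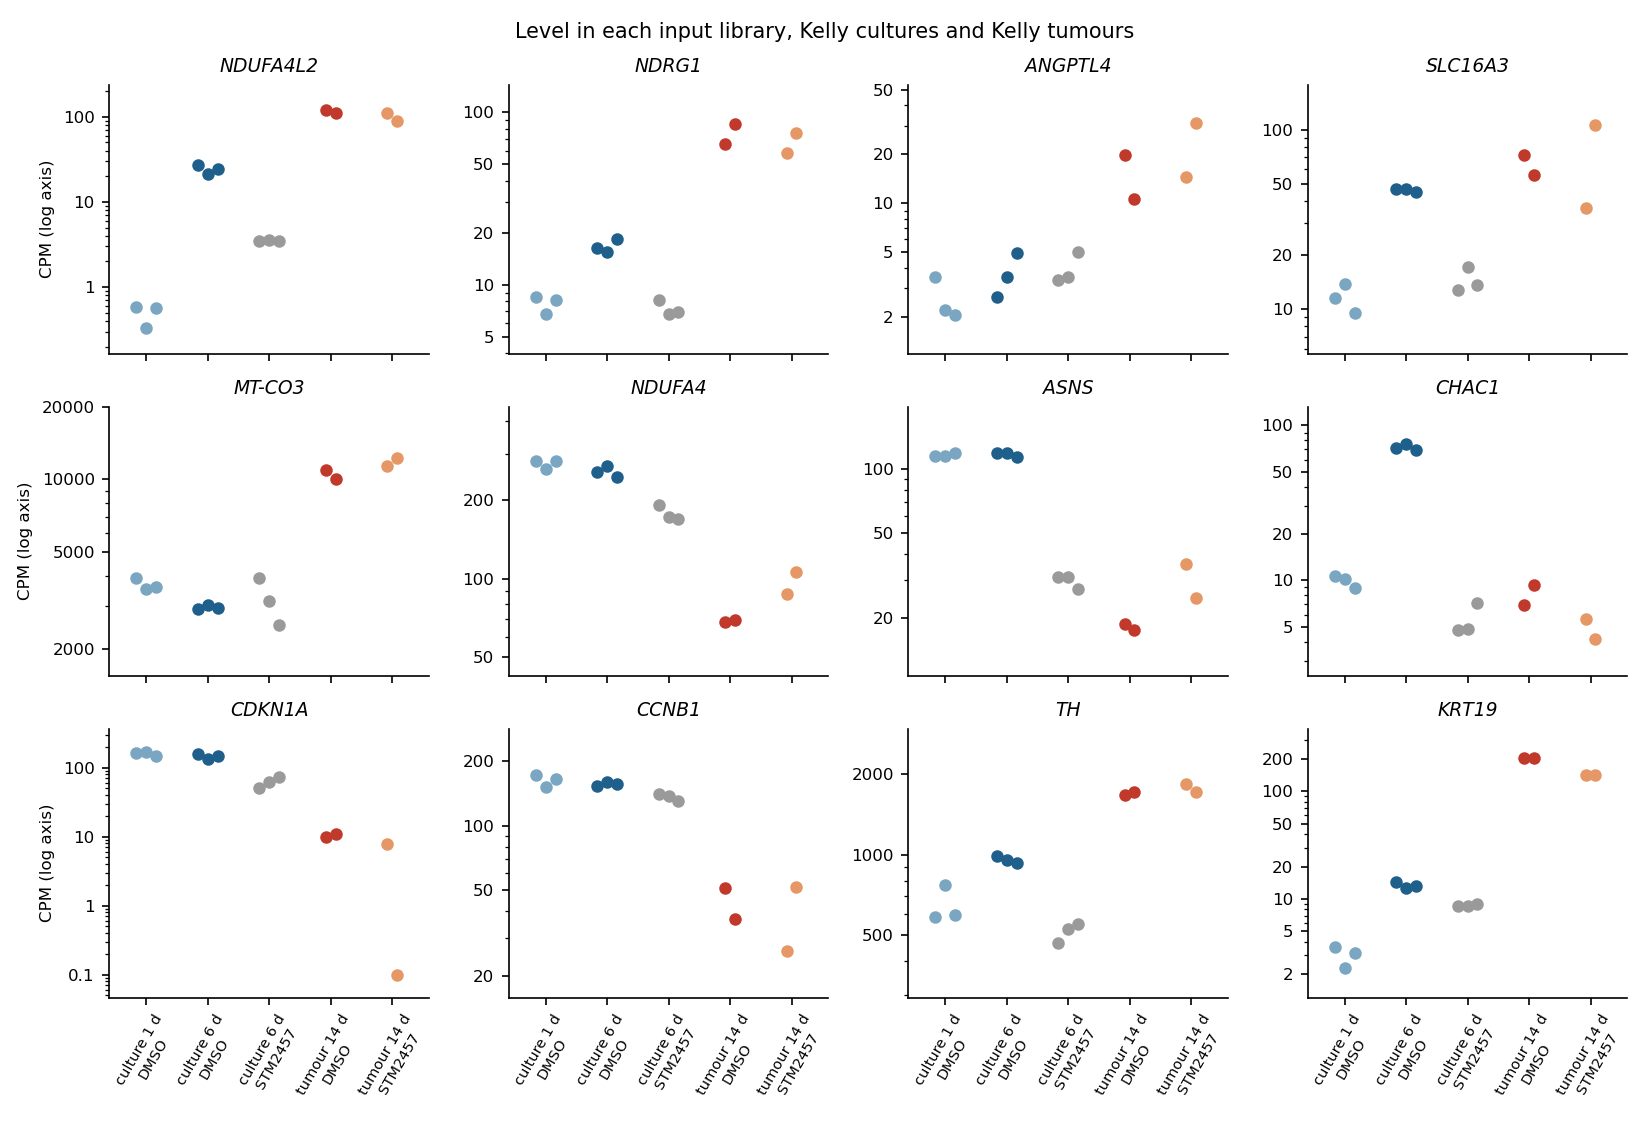
Level of 12 genes in each input library of 5 groups, in CPM on log axes, 1 point per library; a library at 0 is drawn at 0.1 CPM, which applies to CDKN1A in tumour 2 given STM2457. NDUFA4L2, NDRG1, MT-CO3 and KRT19 were higher in all 4 tumours than in all 9 cultures, NDUFA4, CDKN1A and CCNB1 were lower, and ASNS was low in the tumours and in the cultures given STM2457.

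Glucose metabolism changed gene by gene. Of 23 tested genes for glucose uptake, glycolysis and lactate, 10 rose and 6 fell, with a median of 0.28. SLC2A1, the main glucose transporter of cancer cells, stood at 186, 190.1 and 175 CPM in cultures and 224 and 225 CPM in tumours, a log2 change of 0.35 (adjusted p = 0.0038). SLC16A3, the lactate exporter MCT4, stood at 46.5, 46.6 and 45.1 CPM in cultures and 72.5 and 56.1 CPM in tumours (log2 change 0.53, adjusted p = 0.0139). Both tumours lay above all 6 day cultures for these transporters, but the 1 day cultures stood at 267, 269 and 257 CPM for SLC2A1, where the scaled log2 change was 0.15 and not called.

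PFKFB3, which makes the activator of phosphofructokinase, showed the largest rise of the list, from 2.15, 2.43 and 5.18 CPM to 10.2 and 13.9 CPM (log2 change 1.95, adjusted p = 0.00746). PFKP, a phosphofructokinase, rose by 0.52, ENO1, an enolase, by 0.44 and GAPDH by 0.28 on the log2 scale. PDK1, the kinase that holds pyruvate out of the citric acid cycle, stood at 10.7, 12.4 and 13.8 CPM in cultures and 23.5 and 18.6 CPM in tumours (log2 change 0.82, adjusted p = 0.0171), while the 1 day cultures held 29.0, 33.3 and 34.3 CPM. Against the 1 day cultures ENO1 turned to -0.53 and PDK1 to -0.24, the latter not called. The falls sat in other steps of the same pathway. PGK1, phosphoglycerate kinase and a classic HIF target, stood at 288, 289 and 295 CPM in cultures and 174 and 173 CPM in tumours. Its groups lay far apart, with a log2 change of -0.68 (adjusted p = 9.70e-05). TPI1, PGAM1, ALDOA and ALDOC fell by 0.57, 0.75, 0.85 and 0.88 on the log2 scale, and all 4 turned to small positive values against the 1 day cultures (0.10, 0.40, 0.37 and 0.30), of which only that of PGAM1 was called. In the tumour-spread test TPI1 was the 1 gene called of the 23 (adjusted p = 0.0264), beside 2.1% of all genes called lower. LDHB was not analysed here.

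The citric acid cycle list held 20 tested genes, of which 1 rose and 6 fell, with a median of -0.14. SDHB, the iron-sulfur subunit of succinate dehydrogenase, stood at 168, 174 and 162 CPM in cultures and 65.3 and 74.0 CPM in tumours, a fall of 1.21 on the log2 scale (adjusted p = 2.84e-05). MDH2, mitochondrial malate dehydrogenase, stood at 684, 655 and 671 CPM and 312 and 403 CPM (log2 change -0.85, adjusted p = 2.57e-04). Both tumours lay below every culture for both genes, and both passed the tumour-spread test.

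The respiratory chain divided by the genome that encodes it. Its complexes are built from 13 subunits encoded in mitochondrial DNA and many more encoded in the nucleus. Of the 13 mitochondrial genes, 12 rose and none fell, with a median log2 change of 1.09, and the 12 also passed the tumour-spread test. Of 70 tested nuclear genes for subunits of the chain and ATP synthase, 5 rose and 55 fell, with a median of -0.83, and 1 and 29 passed the tumour-spread test. The summed level of the mitochondrial genes went from 44929 to 45729 CPM in cultures to 87032 to 95309 CPM in tumours, and that of the nuclear genes from 15580 to 16116 CPM to 8564 to 9524 CPM.

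MT-CO3, a core subunit of cytochrome c oxidase, stood at 2909.9, 3018 and 2948 CPM in cultures and 10898 and 10018 CPM in tumours. The groups did not overlap, with a log2 change of 1.88 ± 0.05 (adjusted p = 2.88e-07). MT-ND4, of complex I, stood at 6376, 6281 and 6429 CPM and 15712 and 13823 CPM, a log2 change of 1.27 (adjusted p = 3.15e-06), and MT-ATP6, of ATP synthase, rose by 1.82. MT-ND6, the only one of these genes on the light strand, was the gene not called, at 2273, 2236 and 2222 CPM in cultures and 2718 and 2082 CPM in tumours (log2 change 0.16, adjusted p = 0.239). Its tumours fell on either side of the cultures.

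Among nuclear genes NDUFA4, a small subunit first found in complex I and later placed in cytochrome c oxidase, stood at 257, 269.6 and 245 CPM in cultures and 68.4 and 69.6 CPM in tumours. Both tumours were far below the cultures, with a log2 change of -1.84 ± 0.08 (adjusted p = 3.10e-06), the opposite of its relative NDUFA4L2. UQCRQ, of complex III, stood at 184, 185 and 165 CPM and 46.0 and 64.2 CPM (log2 change -1.61, adjusted p = 5.02e-05). COX6C fell by 1.99 on the log2 scale, though its cultures ranged widely at 189, 385 and 224 CPM. The exceptions included ATP5F1D, a subunit of the ATP synthase stalk, at 361, 365 and 375 CPM in cultures and 523 and 516 CPM in tumours (log2 change 0.56, adjusted p = 1.49e-04).

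The nuclear fall was seen against the 6 day cultures and not as a group against the 1 day cultures. Against the latter, 28 of 71 nuclear genes were higher in tumours, 26 lower and the median was 0.01. The background there was 29.1% higher and 32.5% lower of 13576 genes. All 13 mitochondrial genes were higher in tumours than in the 1 day cultures, with a median of 1.90. Transcript length moves with these comparisons: the nuclear genes of the chain have a median exon length of 2305 bases against 5210 bases over all tested genes. With all genes divided into 10 groups of equal size by length, the median log2 change of tumour over 6 day culture ran from -0.27 in the group of shortest genes to 0.11 in that of the longest, and that of 6 day over 1 day cultures from 1.10 to -0.80. With the trend over length removed, the nuclear list median was -0.62, with 49 genes called lower.

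**Figure D3:**
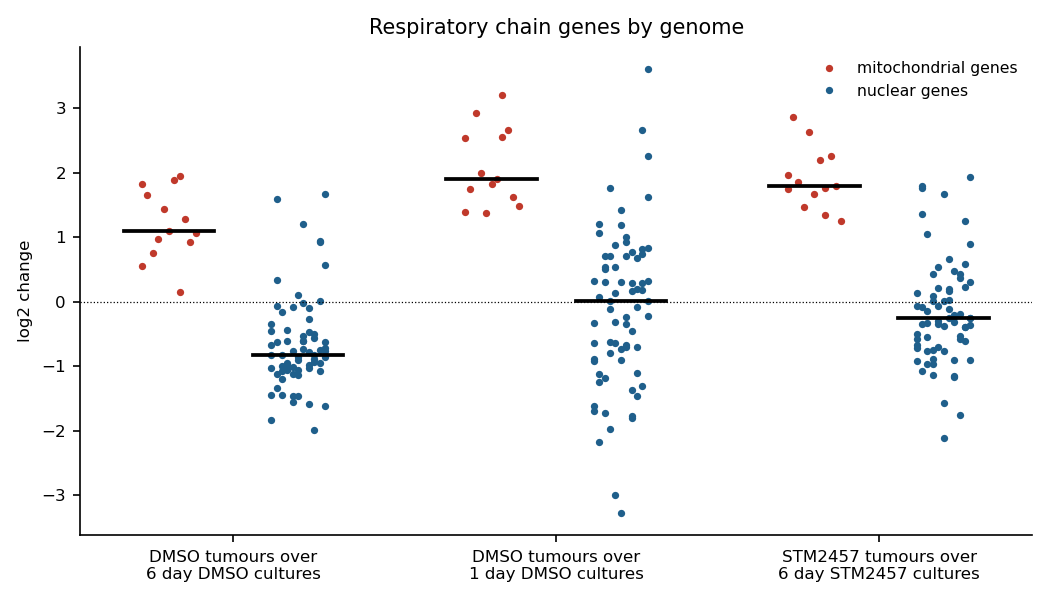
Log2 change of each respiratory chain gene, 13 encoded in mitochondrial DNA in red and those encoded in the nucleus in blue, in 3 comparisons, with black bars for medians. Mitochondrial medians are 1.09, 1.90 and 1.78, and nuclear medians are -0.83, 0.01 and -0.25.

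**Figure D4:**
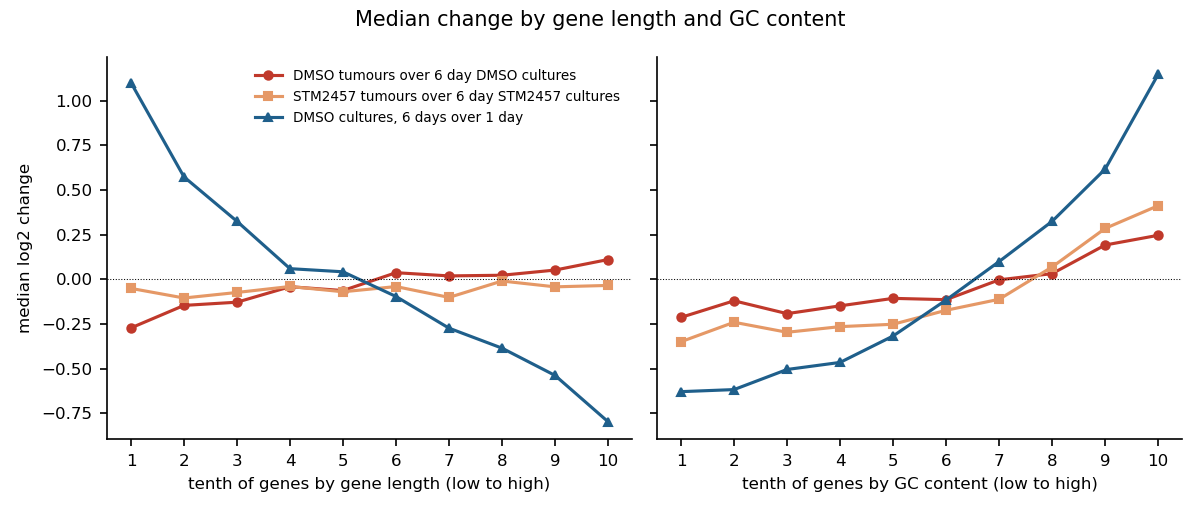
Median log2 change of the genes in 10 groups of equal size by exon length (left) and by GC content (right) for 3 comparisons. Tumour over 6 day culture ran from -0.27 to 0.11 with length and from -0.21 to 0.25 with GC content, and the 6 day over 1 day cultures ran from 1.10 to -0.80 and from -0.63 to 1.15.

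The amino acid response was lower in tumours almost throughout. Of 24 tested genes from the ATF4 list, 20 fell, none rose and 4 were not called, with a median log2 change of -1.22, the lowest among the pathway lists with at least 10 tested genes. In the tumour-spread test 9 were lower and none higher. ATF4 itself stood at 1342, 1323 and 1343 CPM in cultures and 838 and 829 CPM in tumours, a fall of 0.62 on the log2 scale (adjusted p = 3.83e-05). The 1 day cultures held less ATF4, 579.5, 553 and 545 CPM, so the change against them was 0.96 (adjusted p = 8.48e-06).

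ASNS, asparagine synthetase, lies on chromosome 7 at 97851677 to 97872542 (GRCh38, minus strand) and carries 1 copy of the element in the window printed above. It stood at 119, 119.8 and 114 CPM in the 6 day cultures, 18.6 and 17.6 CPM in the tumours and 116, 115 and 119.7 CPM in the 1 day cultures. The tumours were below all 6 DMSO cultures, at 1 part in 6.51 of the 6 day level, with a log2 change of -2.65 ± 0.11 (adjusted p = 2.74e-06, and 5.45e-05 in the tumour-spread test). CHAC1, which breaks down glutathione under stress, stood at 72.1, 76.4 and 69.9 CPM in the 6 day cultures and 6.98 and 9.35 CPM in the tumours, and its log2 change was -3.06 ± 0.16 (adjusted p = 6.86e-06). The 1 day cultures, at 10.6, 10.3 and 8.92 CPM, lay beside the tumours.

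The amino acid list also holds enzymes of serine synthesis and one-carbon metabolism. PHGDH, the entry enzyme of serine synthesis, stood at 581, 546 and 604 CPM in cultures and 239.7 and 249 CPM in tumours (log2 change -1.18, adjusted p = 1.08e-05). PSAT1, the next enzyme, fell by 1.79, MTHFD2, of mitochondrial folate metabolism, by 1.27 and ALDH1L2, of the same pathway, by 4.22 on the log2 scale. ALDH1L2 was at 14.7, 16.9 and 18.1 CPM in cultures and at 0.233 and 1.24 CPM in the tumours. SHMT2, the mitochondrial serine hydroxymethyltransferase, was level, with a log2 change of 0.08 that was not called. For the amino acid transporters, SLC7A5 stood at 299, 291 and 302 CPM in cultures and 143 and 123 CPM in tumours (log2 change -1.10, adjusted p = 3.72e-05), and SLC7A11, the cystine importer, at 11.7, 9.62 and 8.10 CPM and 0.698 and 2.34 CPM (log2 change -2.50, adjusted p = 0.00327). PHGDH, MTHFD2 and SLC7A5 passed the tumour-spread test and were also lower than in the 1 day cultures, with log2 changes of -0.70, -1.23 and -1.05.

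The stress regulators of the list differed by reference. ATF3, a factor induced by many stresses, stood at 42.3, 41.1 and 38.5 CPM in the 6 day cultures, 3.49 and 11.3 CPM in the tumours and 15, 11.5 and 13.2 CPM at 1 day, a log2 change of -2.30 (adjusted p = 0.00104). TRIB3, a pseudokinase that restrains ATF4, and INHBE, a secreted inhibin subunit, fell by 1.43 and 3.54 on the log2 scale against 6 days and were at 0.44 and 0.07 against 1 day, neither called there. SESN2, a leucine sensor upstream of mTORC1, fell by 2.15 (adjusted p = 4.97e-05) and was lower than at 1 day too. Of 23 list genes tested against the 1 day cultures, 5 were higher and 11 lower, with a median of -0.39. The shares over all genes there were 29.1% higher and 32.5% lower.

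Chaperones of the endoplasmic reticulum were lower as well: 12 of 14 tested genes fell, none rose and the median was -0.70. In the tumour-spread test 5 were lower, HSPA5 and XBP1 among them. HSPA5, the central chaperone BiP, stood at 361, 356 and 343 CPM in cultures and 127 and 134 CPM in tumours, both tumours far below, with a log2 change of -1.38 ± 0.07 (adjusted p = 5.04e-06). XBP1, the factor spliced on endoplasmic reticulum stress, stood at 254, 241 and 241 CPM and 104 and 64.1 CPM (log2 change -1.50, adjusted p = 3.04e-04). Against the 1 day cultures HSPA5 changed by -2.18 and XBP1 by 0.15, the latter not called. PDIA4 was not called, at 214, 219 and 232 CPM and 248 and 204 CPM. The cytosolic heat shock list gave no common direction, with 3 of 13 genes higher and 4 lower, beside 20.4% of all genes each way. In the tumour-spread test 3 were higher and none lower, beside 5.7% and 2.1% of all genes. Within it HSPA1A, an inducible Hsp70 gene whose reads can be shared with the near-identical HSPA1B, stood at 50.7, 58.0 and 49.6 CPM in cultures and 159 and 168 CPM in tumours (log2 change 1.69, adjusted p = 8.53e-06), and HSP90AA1 rose by 0.67 against the 6 day cultures and stood -0.41 on the log2 scale against those at 1 day.

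Cholesterol synthesis was lower in tumours. Of 20 tested genes for synthesis and uptake, 12 fell and 1 rose, with a median of -0.66. In the tumour-spread test 2 were lower and 1 higher. HMGCS1, at the start of the pathway, stood at 40.7, 44 and 40.0 CPM in cultures and 16.3 and 13.2 CPM in tumours (log2 change -1.45, adjusted p = 2.72e-04). SQLE, squalene epoxidase, stood at 85.9, 86.7 and 81.2 CPM and 16.7 and 28.9 CPM (log2 change -1.79, adjusted p = 1.90e-04). Tumours were below all cultures for both, and the 1 day cultures held more HMGCS1 still, at 143, 144 and 172 CPM.

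FDFT1, squalene synthase, fell by 1.37 and SREBF2, the factor that drives the pathway, by 0.81 on the log2 scale, and these were the 2 genes called lower in the tumour-spread test. MVD, mevalonate diphosphate decarboxylase, was the exception, at 66.3, 70.6 and 70.8 CPM in cultures and 134 and 119 CPM in tumours (log2 change 0.92, adjusted p = 1.54e-04). In fatty acid synthesis 5 of 11 genes fell and 1 rose. The riser was FASN, the fatty acid synthase itself, from 928, 936 and 914 CPM to 1359 and 1226 CPM (log2 change 0.54, adjusted p = 2.26e-04), although the 1 day cultures held more, 1795, 2206 and 1769.8 CPM, where the scaled log2 change was -0.19 and not called.

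Growth genes were lower in part. Of 30 tested mitosis genes 16 fell and 1 rose, with a median of -0.70, and of 36 DNA replication genes 12 fell and 5 rose, with a median of -0.20. In the tumour-spread test 1 mitosis gene and 2 replication genes were lower, beside 2.1% of all genes. Against the 1 day cultures 26 of 30 mitosis genes were lower and none higher, beside 32.5% and 29.1% of all genes. MKI67, the usual marker of cycling cells, stood at 255, 244 and 251 CPM in the 6 day cultures and 216 and 225 CPM in the tumours and was not called (log2 change -0.12, adjusted p = 0.162). The 1 day cultures stood far above both, at 837, 772 and 793 CPM.

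CCNB1, the cyclin of mitotic entry, stood at 153, 160.5 and 157 CPM in cultures and 51.4 and 36.7 CPM in tumours. Both tumours were well below all cultures, with a log2 change of -1.80 ± 0.14 (adjusted p = 3.84e-05), and CCNB1 was the mitosis gene that passed the tumour-spread test. CDK1, its kinase, fell by 1.42 and PLK1, a mitotic kinase, by 0.95 on the log2 scale. TOP2A, the topoisomerase that untangles chromosomes, was the riser against the 6 day cultures, from 121, 135 and 127 CPM to 187 and 167 CPM (log2 change 0.53, adjusted p = 0.00174), but lay below the 1 day cultures at 387, 419 and 472 CPM. In replication, MCM2, a subunit of the helicase, stood at 696, 695 and 702 CPM in cultures and 354 and 395 CPM in tumours (log2 change -0.84, adjusted p = 3.28e-05). PCNA and TYMS fell by 0.76 and 0.80, and CDT1, which loads the helicase, rose by 0.56 on the log2 scale. TYMS turned to 0.86 against the 1 day cultures.

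The inhibitors of cyclin-dependent kinases did not move together. CDKN1A, the p53 target p21, on chromosome 6 at 36676460 to 36687339 (GRCh38, plus strand), stood at 156, 134 and 148 CPM in the 6 day cultures, 9.77 and 10.9 CPM in the tumours and 162, 169 and 147 CPM in the 1 day cultures. The tumours were at 1 part in 14.1 of the 6 day level and below all 6 cultures, with a log2 change of -3.75 ± 0.13 (adjusted p = 1.64e-06, and 0.0567 in the tumour-spread test). CDKN1B, p27, stood at 81.4, 74.3 and 78.5 CPM and 38.4 and 29.2 CPM (log2 change -1.17, adjusted p = 3.93e-04). CDKN1C, p57, went the other way, from 26.2, 26.9 and 26.5 CPM to 81.8 and 39.1 CPM (log2 change 1.23, adjusted p = 0.00711), and it was near 0 in the 1 day cultures, at 0.234, 0.373 and 0.339 CPM. Of 34 tested replication-dependent histone genes 9 rose and 1 fell, with a median of 1.09, and their sum went from 125 to 129 CPM to 234 to 261 CPM, while the 1 day cultures held 276 to 296 CPM. Most histone messages lack a poly(A) tail and the gene copies are alike, so single members are uncertain. H2BC12, an H2B gene, stood at 17.0, 20.4 and 21.7 CPM in cultures and 43.0 and 48.1 CPM in tumours (log2 change 1.27, adjusted p = 4.59e-04).

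Genes of the noradrenergic program moved in both directions. Neuroblastoma cells of this kind are held in an adrenergic state by a circuit of transcription factors and make noradrenaline. Of 16 adrenergic factors 5 rose and 5 fell, with a median of -0.08, and of 16 genes for catecholamines and their granules 6 rose and 6 fell, with a median of -0.02. Over all genes 20.4% were called in each direction. TH, which makes the first step from tyrosine, stood at 989, 956 and 934 CPM in cultures and 1665 and 1708 CPM in tumours. The groups were far apart against a narrow spread, with a log2 change of 0.87 ± 0.05 (adjusted p = 7.75e-06). DBH, which makes noradrenaline, stood at 1618, 1593 and 1600.0 CPM and 2994 and 3133 CPM (log2 change 0.99 ± 0.04, adjusted p = 2.74e-06), and CYB561, the granule cytochrome that feeds it electrons, rose by 1.11. These 3 passed the tumour-spread test, in which 4 genes of the list were higher and 1 lower.

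Other granule genes were lower. SLC18A2, the transporter that loads granules, stood at 30.7, 28.2 and 30.9 CPM in cultures and 5.58 and 11.1 CPM in tumours (log2 change -1.73, adjusted p = 0.00122). SCG2, a granin, fell by 1.89 and NPY, a peptide released with noradrenaline, by 0.90 on the log2 scale, while VGF, another granule peptide precursor, rose by 1.24. NPY turned to 2.93 against the 1 day cultures. Of the factors, HAND2 stood at 2426, 2357 and 2428 CPM in cultures and 1845 and 1833 CPM in tumours (log2 change -0.33, adjusted p = 5.72e-04). GATA3 fell by 0.39, ISL1 fell by 1.16, from 152, 146 and 135 CPM to 61.4 and 62.3 CPM, and SOX11 rose by 1.15. HAND2 was higher in the tumours than in the 1 day cultures, at 1.49. In the neurite and synapse list 3 of 26 genes rose and 6 fell, beside 20.4% of all genes each way. UCHL1, a neuronal ubiquitin hydrolase, was among the falls, by 0.99. Against the 1 day cultures UCHL1 was higher, at 0.44.

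Of 20 tested extracellular matrix genes 10 fell, 2 rose and 8 were not called, with a median of -0.41. In the tumour-spread test none was lower and 1 was higher. COL4A1, of basement membranes, stood at 40.8, 44 and 44.4 CPM in cultures and 4.19 and 17.6 CPM in tumours (log2 change -1.82, adjusted p = 0.00697). FN1, fibronectin, fell by 1.29 and LAMC1, a laminin chain, by 1.00 on the log2 scale, none of the 3 passing the tumour-spread test. COL6A3, a chain of collagen VI, rose instead, from 70.3, 66.2 and 72.2 CPM to 448 and 371 CPM, with both tumours far above all cultures and a log2 change of 2.61 ± 0.10 (adjusted p = 1.86e-06). COL6A3 was the matrix gene that passed the tumour-spread test. The human fibroblast genes COL1A2, DCN and LUM were at 0 in these tumours, and the collagen I gene COL1A1 stood at 47.9 and 60.4 CPM against 31.6, 35.4 and 31.3 CPM in cultures. Reads of the mouse host were not measured, and their part in the COL6A3 value was not tested.

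Smaller lists gave mixed results, beside 20.4% of all genes called in each direction. Of 10 tested ligands that act on vessels 3 rose and 2 fell: VEGFB stood at 74.1, 69.2 and 81.3 CPM in cultures and 149 and 150.2 CPM in tumours (log2 change 1.06, adjusted p = 7.68e-05), PGF rose by 0.64 and EFNA1 fell by 1.76. B2M, the light chain of MHC class I, fell from 81.8, 80.0 and 80.3 CPM to 34.6 and 18.6 CPM (log2 change -1.59, adjusted p = 8.34e-04), 1 of 6 tested genes of that list to fall, with 2 that rose. Interferon-induced genes gave 3 falls and no rise among 12. Of 9 tested genes of the mesenchymal state 2 rose and 3 fell. NES, a filament protein of neural precursors, stood at 582, 597 and 584 CPM in cultures and 1107 and 1079 CPM in tumours (log2 change 0.95, adjusted p = 6.86e-06). TWIST1, a bHLH factor, stood at 525, 515 and 496 CPM in the 6 day cultures, 283 and 262 CPM in tumours and 49.3, 68.8 and 57.9 CPM in the 1 day cultures, so its log2 change turned from -0.85 to 2.60. Immediate early genes split 4 to 5 among 16, with EGR1 at 1.16, 1.33 and 0.648 CPM in cultures and 5.35 and 6.33 CPM in tumours (log2 change 2.53, adjusted p = 0.0053). Ribosomal protein genes, 77 tested, gave 19 rises and 27 falls with a median of -0.04.

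The machinery of the RNA mark m6A was also read, since METTL3 is the target of the drug in this study. Of 16 tested genes 5 rose and 1 fell, with a median of 0.04, beside 20.4% of all genes called each way. METTL3 was not called, at 96.4, 90.1 and 88.4 CPM in cultures and 79.8 and 57.5 CPM in tumours (log2 change -0.37, adjusted p = 0.0663), although both tumours lay below all 3 cultures. ALKBH5, a demethylase, stood at 22.8, 22.4 and 24.9 CPM in cultures and 61.6 and 48.3 CPM in tumours, a log2 change of 1.29 (adjusted p = 3.52e-04), while the 1 day cultures were at 59.6, 61.4 and 56.3 CPM, beside the tumours (scaled log2 change 0.27, not called).

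Many of the largest rises were in genes nearly silent in the dish. The genes described here were the 12 called genes with the largest log2 change among those with an average of at least 3 log2 CPM and groups that did not overlap. TNFRSF4, the costimulatory receptor OX40 of T cells, led with 0.331, 0.0782 and 0.162 CPM in cultures and 51.6 and 59.3 CPM in tumours (log2 change 8.17, adjusted p = 2.18e-06). LIN28A, an RNA-binding protein of embryonic cells, stood at 0.248, 0.704 and 0.648 CPM and 44.6 and 47.9 CPM (log2 change 6.46, adjusted p = 4.46e-06). Both were high in both tumours and near 0 in all 6 DMSO cultures. COL2A1, the collagen of cartilage, on chromosome 12 at 47972967 to 48004554 (GRCh38, minus strand), stood at 26.1, 20.3 and 23.6 CPM in cultures and 492 and 483 CPM in tumours, a log2 change of 4.45 ± 0.10 (adjusted p = 2.88e-07). KRT17, a keratin of epithelia, stood at 5.13, 4.38 and 4.21 CPM and 173 and 144 CPM (log2 change 5.17, adjusted p = 4.85e-07). Its tumours stood near each other, as they did for COL2A1.

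DPEP3, a membrane dipeptidase of the testis, SLC12A3, a salt transporter of the kidney, DNAJB8, a testis chaperone, CRYBA2, a lens crystallin, and NKX6-3, a homeobox factor, rose by 5.66, 4.95, 4.87, 4.77 and 4.66 on the log2 scale. GREM1, a secreted BMP antagonist, stood at 61.4 and 21.9 CPM in the tumours against 1.65, 1.64 and 1.94 CPM. The GREM1 levels of the tumours were unequal. LETM1, a mitochondrial ion transporter, stood at 31.9, 37.2 and 33 CPM in cultures and 70.2 and 2819 CPM in tumours, so its log2 change of 5.46 was 1.11 without tumour 2. RAPGEF4, a cyclic AMP-regulated exchange factor, stood at 135 and 360.0 CPM in the tumours against 4.39, 4.77 and 4.53 CPM in the cultures, the tumours again unequal. All 12 of these genes with the largest rises passed the tumour-spread test, so passing it does not show that the tumours were alike. The STM2457 tumours stood at 38.9 and 44.8 CPM for LETM1 and at 93.7 and 2.33 CPM for RAPGEF4. Both STM2457 tumours lay above all STM2457 cultures for every one of the 12 except RAPGEF4.

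Lists of keratins, cancer-testis genes and zinc finger genes were drawn up after the rises had been seen, so their counts only describe them. Of 8 tested keratin genes 2 rose and 1 fell, with a median of 1.38. KRT19, an epithelial keratin, stood at 14.3, 12.6 and 13.3 CPM in the 6 day cultures, 203 and 202 CPM in the tumours and 3.58, 2.28 and 3.16 CPM at 1 day, a log2 change of 3.98 ± 0.10 (adjusted p = 2.88e-07). Of the 5 marker genes of skin keratinocytes in the files 4 were at 0 in both tumours. Of 28 tested cancer-testis genes, which are normally silent outside the germ line, 11 rose and 3 fell, and CTCFL, the testis relative of CTCF, stood at 3.56, 2.43 and 4.05 CPM in cultures and 63.0 and 76.7 CPM in tumours (log2 change 4.44, adjusted p = 5.04e-06). Of 453 tested zinc finger genes with a ZNF symbol 135 rose and 17 fell, with a median of 0.39. Against the 1 day cultures that last list was even, with 107 of 472 genes higher and 105 lower. Over all genes the shares there were larger, 29.1% higher and 32.5% lower.

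Among the 12 largest falls, chosen by the same rule, several genes had few counts left in the tumours. FRMD4B, a scaffold protein, stood at 18, 16.7 and 22.8 CPM in cultures and 0.233 and 0 CPM in tumours, and MAN1A1, a Golgi mannosidase, at 13.0, 14.3 and 17.4 CPM and 0.233 and 0 CPM. Both held 1 count over the 2 tumours, so the cultures stood at 222 times the tumour level for FRMD4B (exact 95% interval 39.7 to 8769, counting error only) and 173 times for MAN1A1 (30.9 to 6829), with adjusted p-values of 4.65e-05 and 8.10e-05 in edgeR's test. ATP2B3, a neuronal calcium pump, stood at 32.4, 30.0 and 33 CPM and 1.40 and 0.413 CPM, TNR, a matrix protein of the nervous system, at 11.4, 10.1 and 16.0 CPM and 0.465 and 0.963 CPM, and RPH3A, a synaptic vesicle protein, at 56.6, 55.9 and 48.0 CPM and 2.09 and 5.36 CPM. The rule itself requires all cultures to lie above all tumours. The log2 changes of ATP2B3, TNR and RPH3A were -5.25, -3.95 and -3.67 (adjusted p = 2.34e-05, 3.06e-04 and 3.83e-05). DYNC1I1, a neuronal dynein chain, ZNF536, a repressor of neuronal differentiation, EYA4 and ADM2 fell by 3.41, 4.29, 3.33 and 3.36, and ADM2 alone of these 4 turned against the 1 day cultures, to 0.26 (not called). PCDHGC3 was also among the 12, but all of its counted exon bases overlap other genes of the protocadherin gamma cluster, so its value is uncertain. CDKN1A and ALDH1L2, described above, complete the list. FRMD4B and RPH3A alone of these passed the tumour-spread test.

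The libraries given STM2457 repeat the contrast between tumour and culture without sharing a library with it, although tumours and cultures again come from separate experiments, and the drug differs in dose and route between dish and mouse. Of 12106 genes tested there, 3808 differed (31.5%), of which 1973 were higher in tumours (16.3%) and 1835 lower (15.2%). These counts were less stable: without 1 culture 883 to 1083 genes were called, and without tumour 1 or 2, which leaves a lone tumour assumed to vary like the cultures, 7689 or 7471. Over 12070 genes tested in both, Spearman's correlation of the log2 changes was 0.56, a description across genes that are not independent replicates. Of those genes 8633 had the same sign (71.5%), with 3286 called in the same direction and 493 in the opposite one. Of the large rises 966 were tested in both and 883 had the same sign (91.4%), with 602 called in the same direction and 9 in the opposite one. Of the large falls 981 were tested in both, 852 had the same sign, 391 were called in the same direction and 4 in the opposite one.

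**Figure D5:**
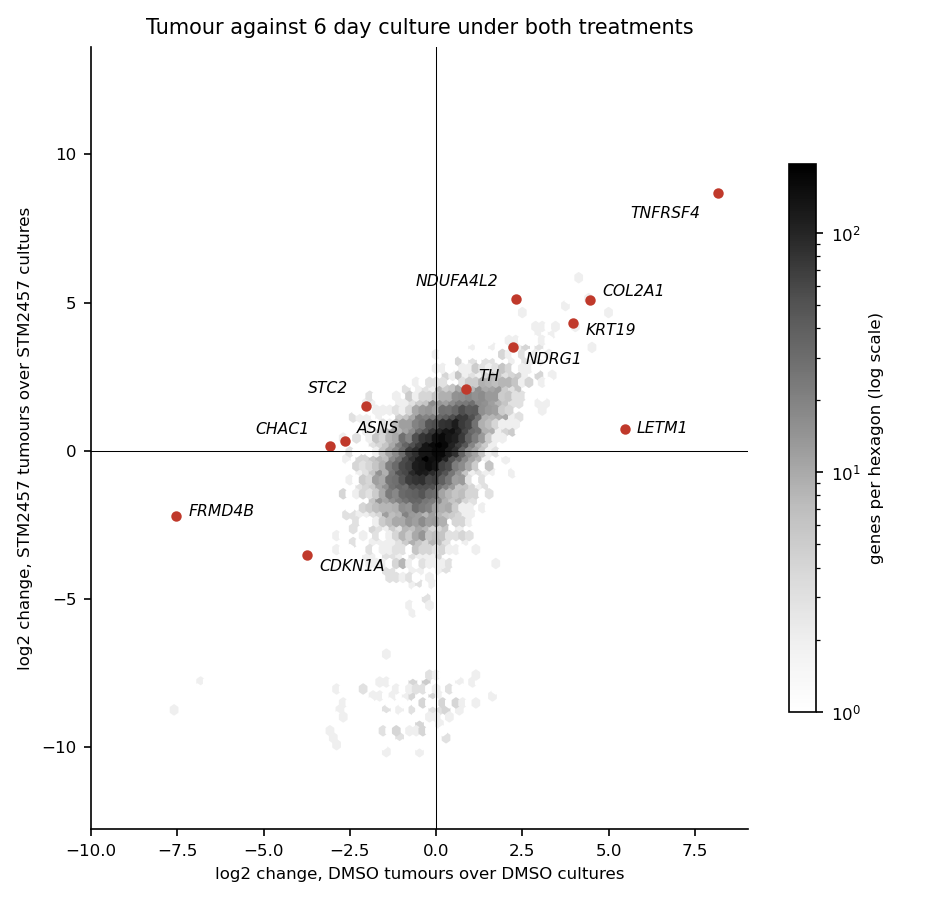
Log2 change of tumour over 6 day culture for each gene tested under both treatments, DMSO on the horizontal and STM2457 on the vertical axis, with darker hexagons holding more genes (log scale) and named genes as red points. TNFRSF4, COL2A1 and KRT19 lie high on both axes, ASNS, CHAC1 and STC2 lie left of 0 without a matching fall under STM2457, and the separate group at the bottom holds genes with very few counts in the STM2457 tumours.

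Other groups gave the following values under STM2457, where culture 3 stood apart. It held 5765458 fragments against 28674672 and 31487824, and 1.79% of them came from mitochondrial genes against 5.09% and 4.06%. The mitochondrial respiratory genes rose in 10 of 13 cases with none lower, and their median was 1.78. Without culture 3, a setting for the lists chosen after seeing the data, that list gave 11 rises and a median of 1.46. In that setting 5.76% of all 12910 tested genes were called higher and 2.63% lower, fewer than with culture 3. The hypoxia list gave 9 rises and 2 falls among 26 genes, with a median of 0.73, and without culture 3 it gave 4 rises and none lower among 28 with a median of 0.52. NDUFA4L2 stood at 3.49, 3.62 and 3.47 CPM in the STM2457 cultures and 112 and 89.0 CPM in the STM2457 tumours (log2 change 5.13, adjusted p = 4.09e-04). Its tumour levels were close to those of DMSO tumours, while the STM2457 cultures held far less than the DMSO cultures. TH showed the same pattern, with STM2457 cultures at 470.2, 529 and 550.2 CPM and STM2457 tumours at 1841 and 1716 CPM. SLC16A3 stood at 12.7, 17.1 and 13.5 CPM in the STM2457 cultures, and its STM2457 tumours, at 36.4 and 105 CPM, lay on either side of the DMSO tumours. Mitosis genes gave 1 rise and 9 falls among 29, with a median of -0.74, and without culture 3 they gave 1 rise and 2 falls with a median of -0.75.

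The amino acid response gave a mixed result there. Of 21 genes 3 were higher in STM2457 tumours and 7 lower, with a median of -0.51, and without culture 3 it gave 1 higher and none lower of 22 with a median of -0.55. Over all genes without culture 3 the shares were 5.76% higher and 2.63% lower. ASNS stood at 31.0, 31.3 and 27.4 CPM in the STM2457 cultures and 35.7 and 24.7 CPM in the STM2457 tumours, overlapping groups (log2 change 0.32, adjusted p = 0.364). CHAC1 stood at 4.74, 4.86 and 7.11 CPM and 5.64 and 4.20 CPM. In both cases the tumours of either treatment were low, and the STM2457 cultures were low with them. The difference between the 2 treatments, tested as an interaction over 13200 genes, was called for 1317 genes (9.98%), 589 higher (4.46%) and 728 lower (5.52%). With limma voom 125 were higher and 8 lower. That total became 496 to 764 without any 1 culture of either treatment, and 4355 or 3307 without STM2457 tumour 1 or 2. It was called for ASNS at 2.95 (adjusted p = 3.72e-04), CHAC1 at 3.26 (adjusted p = 0.00191) and NDUFA4L2 at 2.80 (adjusted p = 3.72e-04) on the log2 scale. Of 24 amino acid response genes tested, 8 were called higher in this test and none lower. The nuclear respiratory list gave 17 higher and none lower of 70. Ribosomal protein genes, with a median of -0.04 under DMSO, gave 52 rises and 2 falls among 77 under STM2457 with a median of 0.56, and 49 were called higher in the test of the difference. Without STM2457 culture 3 the counts called higher in that test were 7 amino acid response genes, 12 nuclear respiratory genes and 45 ribosomal protein genes. Over all 13360 genes tested in that setting, 2.92% were called higher and 2.80% lower.

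The choice of culture reference touches many of these results. The 6 day and 1 day DMSO cultures differed at 10452 of 13221 genes (79.1%), with a median absolute log2 change of 0.77, beside 0.53 between tumours and 6 day cultures. Time in culture and experiment folder cannot be told apart in that difference. On scaled values, 12 of the 13 mitochondrial respiratory genes had both tumours above all 6 DMSO cultures. Both tumours lay below all 6 for 21 of 30 mitosis genes, 12 of 20 cholesterol genes, 11 of 24 amino acid response genes, 7 of 14 chaperones of the endoplasmic reticulum and 22 of 70 nuclear respiratory genes, beside 20% of all tested genes. In the hypoxia list 8 of 30 genes lay above all 6 and 2 below, beside 19% and 20% of all genes. In the test against the 1 day cultures alone 14 of 31 hypoxia genes rose and 5 fell, with a median of 0.45. The shares over all genes in that test were 29.1% higher and 32.5% lower.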

How the data were processed

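The authors deposited 1 table of raw counts for each sample. According to the headers they counted paired fragments over exons by gene name with featureCounts 1.5.3 and the protein-coding GENCODE 33 annotation, with no strand option. The submitters' processing notes list FastQC 0.11.5, Trimmomatic 0.36, HISAT2 2.1.0, Subread 1.5.3, deepTools 2.0 and GRCh38, with no roles. Reads on shared or antisense exons cannot be told apart.

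The raw counts, for 19923 genes, were tested in R 4.3.3 with edgeR 4.0.16 (TMM factors, filterByExpr with a minimum count of 10 and total of 15, quasi-likelihood F test, Benjamini-Hochberg adjustment at 0.05), with limma 3.58.1 and DESeq2 1.42.0 as alternatives. Log2 changes are therefore after TMM scaling, and CPM values before it. The code was tested on simulated data. The fit held only the 5 libraries compared. GC content came from GENCODE 44 and was matched for 98.2% of tested genes.

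Named genes were the 12 largest rises and 12 largest falls among called genes with an average of at least 3 log2 CPM, groups not overlapping and not mitochondrial, plus MYCN, METTL3, HIF1A and EPAS1, plus list members, up to 5 called members each way by size or chosen by their place in the pathway. A few list members are not reported here. KRT19, CTCFL and the keratin, cancer-testis and zinc finger lists were chosen after values were seen. The comparison and the gene lists were chosen with earlier results of these data known. The alternatives were other scalings, filters and tools, a stricter fold, leaving out each library, replicate blocks, other references, the antibody pulldown libraries, thinning, length and GC trends and the spread of the tumours alone.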

Additional observations from a re-analysis of the deposited data

Results flagged for a closer look

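For the genes below, the log2 change from culture to tumour differed between STM2457 and DMSO libraries in edgeR's test of the interaction (adjusted p from 3.72e-04 to 0.0458). Each value is the STM2457 change minus the DMSO change. The tumours of the 2 treatments and the cultures of the 2 treatments both enter this value, so a positive value can come from either.

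Among hypoxia and glucose genes the differences were 2.80 for NDUFA4L2, 1.23 for NDRG1, 1.63 for BHLHE40, 2.70 for EGLN3, 3.59 for STC2, 1.96 for DDIT4, -0.95 for EPAS1, 0.66 for SLC2A1, 2.00 for SLC16A3, 0.68 for GAPDH and -0.52 for PGAM1. EGLN3 stood at 3.56, 2.86 and 5.55 CPM in the STM2457 cultures and 18.5 and 55.9 CPM in the STM2457 tumours. STC2 stood at 6.35, 6.83 and 7.81 CPM and 19.4 and 13.1 CPM, against 73.6, 72.1 and 75.4 CPM and 12.3 and 21.2 CPM under DMSO. For STC2 the cultures of the 2 treatments lay further apart than the tumours did. In the respiratory chain NDUFA4 differed by 1.24.

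In the amino acid response and the endoplasmic reticulum the differences were 2.95 for ASNS, 3.26 for CHAC1, 0.87 for ATF4, 0.66 for PHGDH, 0.87 for SLC7A5 and 0.71 for HSPA5, and HSPA1A differed by 1.39. In growth and signalling they were 3.04 for CDKN1C, -0.53 for MCM2, -1.01 for TYMS and 3.49 for FOS. FOS stood at 2.23, 0.762 and 2.60 CPM in the STM2457 cultures and 49.8 and 45.2 CPM in the STM2457 tumours, against 2.15, 0.861 and 1.38 CPM and 3.49 and 4.68 CPM under DMSO. In the noradrenergic program they were 1.19 for TH, 0.42 for DBH, 0.95 for VGF, -1.60 for ISL1 and -0.46 for MYCN. COL2A1 differed by 0.63. FRMD4B differed by 5.34, a value that rests on 1 count in the DMSO tumours and is no measure of size.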

How the results depend on the processing

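Between DMSO tumours and 6 day cultures, 5325 genes were called. Other scalings, filters and tools, thinning, removal of the length trend, removal of the GC trend (added after seeing the data) and 1 fit of all inputs kept the count within 1.5 times. It was 557 when a change over 2-fold was tested and 1019 in the tumour-spread test. It was 8362 against the 1 day cultures, 1729 against both culture times and 278 in the antibody pulldown libraries, enriched for methylated RNA. Without 1 library it ran from 3360 to 7396. Under STM2457, 3808 calls became 1447 with limma voom and 667 for a change over 2-fold, and ran from 883 to 7689 without 1 library. The share of higher genes among calls was 51.8% there and 71.2% with voom. The 1317 calls for the difference between treatments became 2502 with DESeq2 and 133 with voom (125 higher and 8 lower), and ran from 496 to 4355 without 1 library. The cause of these changes was not tested.

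With the replicate number as a block, the counts were 3757 for DMSO, 1390 for STM2457 and 505 for the difference. Same-numbered libraries did not deviate together (correlations of -0.01 to 0.01), so the numbers were not taken to pair the samples. Of the 125 genes followed, 120 kept their side of the threshold under the block and 5 lost the call.

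Against the 1 day cultures these log2 changes turned sign, and the cause was not tested: STC2 1.07, DDIT4 1.59, PDK1 -0.24, ENO1 -0.53, TPI1 0.10, PGAM1 0.40, ALDOA 0.37, ALDOC 0.30, ATF4 0.96, CHAC1 0.12, INHBE 0.074, TRIB3 0.44, XBP1 0.15, HSP90AA1 -0.41, FASN -0.19, TYMS 0.86, TOP2A -0.88, HAND2 1.49, NPY 2.93, UCHL1 0.44, TWIST1 2.60 and ADM2 0.26. Against both culture times together DDIT4 turned to 0.21, ENO1 to -0.11, TOP2A to -0.32, HAND2 to 0.32 and TWIST1 to 0.023. In the pulldown libraries the sign turned for BHLHE40 (-0.34), AK4 (-3.49), HIF1A (0.60), VHL (-0.25), PDK1 (-0.93), TPI1 (1.17), PGK1 (0.11), PGAM1 (0.12), MDH2 (0.063), UQCRQ (1.54), COX6C (2.70), ATF4 (0.96), PSAT1 (0.26), HSPA5 (0.63), XBP1 (0.72), CCNB1 (0.88), CDK1 (1.81), MYCN (-0.22), GATA3 (0.27) and COL6A3 (-1.22). Of these genes BHLHE40, AK4, HIF1A, VHL, PDK1, TPI1, PGK1, PGAM1 and MYCN were not called in the pulldown libraries. Calls for the rest are not given here. In the tumour-spread test 69 of the 125 genes kept their side of the threshold, 55 lost the call and 1 gained it. Depth limits low genes most: the STM2457 tumours held 2144870 and 3189750 assigned fragments, and genes at 0 there have no measured fold.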
